A study of Mus musculus with 8 samples.

Results

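Keratins 7, 8, 18, 19 and 20, the keratins of simple epithelia, were followed as mRNA in whole mouse pancreas. The 5 genes (Krt7, Krt8, Krt18, Krt19 and Krt20) were taken by symbol from 36432 gene IDs, and each symbol matched 1 ID. Poly(A) RNA had been sequenced from 8 pancreases of mice aged 6 to 8 weeks, of mixed strain. All 8 mice carried Ptf1a-Cre +/KI, a Cre recombinase gene knocked in at Ptf1a, which is active in pancreatic progenitors and acinar cells and so reaches acinar, duct and endocrine lineages. The 4 controls carried only that allele, and the other 4 mice were also Gata6 lox/lox. Mice with floxed Gata6 and no Cre were not among the groups, so both groups carry the knock-in at Ptf1a. Its libraries go by the name labelled libraries 1 to 4 here, since Gata6 mRNA was not lower in them (below).

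Keratins are the intermediate filament proteins of epithelial cells. A filament forms only from pairs of a type I and a type II keratin, so the members of a pair are usually made together. Krt8 (type II) and Krt18 (type I) encode the pair found in all simple epithelia and the main one of pancreatic acinar cells. Krt7 (type II) and Krt19 (type I) encode keratins commonly used to mark pancreatic ducts, and Krt20 (type I) is best known from gastrointestinal epithelium. Krt19 also appears in acinar cells that take on a duct-like form after injury.

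Krt7 (mm9 chromosome 15, 101241474 to 101260744), Krt8 (chromosome 15, 101827142 to 101834773) and Krt18 (chromosome 15, 101858647 to 101862457) lie near each other. Krt19 (chromosome 11, 100002124 to 100009979) and Krt20 (chromosome 11, 99289717 to 99299464) lie in the other keratin cluster. The 250 bases before the start of 4 of the genes are shown because the mice differ in a GATA factor, with matches to 2 motifs in capitals, each searched on both strands. The GATA motif was searched as AGATAA and its forms that begin with T in place of the first letter or end with G in place of the last, and the other motif was the TATA box, TATAAA. They are RefSeq's, on GRCm38.p6, 5′ to 3′ along the gene, and Krt19 was not matched.
Krt8, chr15:102004343-102004592, minus strand: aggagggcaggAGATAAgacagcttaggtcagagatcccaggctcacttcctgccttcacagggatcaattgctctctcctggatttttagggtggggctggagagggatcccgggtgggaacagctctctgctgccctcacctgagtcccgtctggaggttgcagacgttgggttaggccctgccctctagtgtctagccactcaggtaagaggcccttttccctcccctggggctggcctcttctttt
Krt18, chr15:102027966-102028215, plus strand: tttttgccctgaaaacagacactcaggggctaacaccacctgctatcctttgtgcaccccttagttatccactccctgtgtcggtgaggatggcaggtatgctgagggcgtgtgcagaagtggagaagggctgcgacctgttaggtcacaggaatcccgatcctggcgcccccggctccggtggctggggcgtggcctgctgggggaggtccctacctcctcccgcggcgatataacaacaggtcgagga
Krt7, chr15:101412153-101412402, plus strand: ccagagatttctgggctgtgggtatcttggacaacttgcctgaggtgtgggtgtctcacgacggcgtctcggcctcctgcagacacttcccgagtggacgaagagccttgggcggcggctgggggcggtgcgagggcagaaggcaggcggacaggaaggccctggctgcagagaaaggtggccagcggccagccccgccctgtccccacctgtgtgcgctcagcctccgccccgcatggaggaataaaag
Krt20, chr11:99438154-99438403, minus strand: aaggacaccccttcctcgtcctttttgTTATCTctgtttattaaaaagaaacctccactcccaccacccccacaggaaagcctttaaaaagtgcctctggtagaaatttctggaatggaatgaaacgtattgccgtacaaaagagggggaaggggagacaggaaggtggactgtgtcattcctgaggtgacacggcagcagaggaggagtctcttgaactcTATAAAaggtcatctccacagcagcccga
Krt8 held 1 GATA match, which starts 239 bases before the gene's start, and Krt20 held 1, which starts 223 bases before. Krt18 and Krt7 held none in this window. Of 32851 promoters of the same length, 26.5% held such a match. TATAAA was found only in that of Krt20, against 12.4% of all promoters. A match of letters is no binding site, and these data do not measure binding.

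Levels are given as rescaled FPKM, the deposited fragments per kilobase divided by 100000, which allows comparison between genes per length. Fragments implied by the deposited intervals summed to 4811659 to 7420240 per library. Gata6, the targeted gene, was 2.76, 2.12, 2.62 and 2.45 rescaled FPKM in controls 1 to 4 and 4.81, 5.12, 4.90 and 4.12 in labelled libraries 1 to 4. It was thus higher in every labelled library, and a gene-level value does not resolve the floxed part. Labelled libraries 1 and 3 stood apart from the other 6: the summed acinar list was 4011 and 45781 there, 232753 and 305471 in labelled libraries 2 and 4, and 430321 to 601657 in the controls. The titles of control 1 and of labelled libraries 1, 3 and 4 begin with BKD, and these came from males by Eif2s3y (5.34 to 13.7, against at most 0.281 in the others). The other 4 had titles starting with ASK or BSH and expressed Xist (17.3 to 32.0, against at most 0.00932). Title prefix and sex therefore coincided and were unevenly spread over the genotypes.

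In the controls the order of the mean levels was Krt18, Krt8, Krt19, Krt7 and Krt20. Krt18 averaged 59.6 ± 15.4 rescaled FPKM, Krt8 35.6 ± 4.62, Krt19 7.95 ± 1.60, Krt7 1.36 ± 0.48 and Krt20 0.312 ± 0.148 (mean ± SD, n = 4). Each neighbour in this order was lower than the one before in 4 of 4 controls. The acinar pair thus made up nearly all of the control signal, with Krt18 at 56.4% ± 3.28 and Krt8 at 34.2% ± 2.25 of the 5 genes' summed level (SD, n = 4). In the labelled libraries the order of Krt18 and Krt8 held in only 2 of 4, and that of Krt7 and Krt20 in 3 of 4. Krt8 stayed above Krt19, and Krt19 above Krt7, in all 8 libraries.

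Krt8, the type II partner of the acinar pair, was 41.8, 34.2, 35.7 and 30.7 rescaled FPKM in controls 1 to 4. It was 67.7, 45.4, 106 and 49.8 in labelled libraries 1 to 4. Every labelled library lay above every control, libraries 1 and 3 far above and libraries 2 and 4 just above. The labelled mean was 67.3 ± 27.6 (SD, n = 4), a ratio of means of 1.89. On the log2(rescaled FPKM + 1) scale the difference was 0.83 (SE 0.29), and limma gave an adjusted p of 0.123 (Benjamini-Hochberg over all genes), so it did not pass. The exact two-sided permutation test gave 0.0286, the smallest p that 4 against 4 libraries allow. Groups that do not overlap with the labelled side higher were common here, at 10.9% of all 11832 genes tested.

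Krt18, its type I partner, was 82.3, 51.3, 56.1 and 48.9 rescaled FPKM in controls 1 to 4 and 64.1, 59.4, 92.7 and 89.3 in labelled libraries 1 to 4. The groups overlapped, since control 1 exceeded labelled libraries 1 and 2. The labelled mean was 76.4 ± 17.0 (SD, n = 4), with a log2 difference of 0.36 (SE 0.25, adjusted p = 0.347 in limma). By title prefix the levels did not overlap: the 4 BKD libraries had 64.1 to 92.7 and the 4 ASK or BSH libraries 48.9 to 59.4. Control 1 was the only control with a BKD title, and labelled library 2 the only labelled library without one. Each comparison within a prefix therefore rests on a single library on one side. Within the BKD titles the log2 difference between genotypes was -0.023, and within the ASK and BSH titles 0.19. In a fit with the prefix as a term it was 0.08 (adjusted p = 0.838 in limma). At the reported scaling Krt18 thus separated by title prefix and overlapped between genotype labels, and prefix and sex cannot be told apart. The other keratins overlapped between prefixes. The share of all genes that separate by prefix was not computed, so how unusual Krt18 is in this is not known. Under equal-sum and implied-total scaling (below), where the median of all genes rose too, all 4 labelled libraries lay above every control for Krt18.

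Krt19, the duct type I keratin, was 9.57, 8.55, 5.78 and 7.92 rescaled FPKM in controls 1 to 4. It was 25.7, 13.6, 34.5 and 9.26 in labelled libraries 1 to 4. Libraries 1, 2 and 3 exceeded every control, by a wide margin in 1 and 3, while library 4 lay inside the control range. The means were 7.95 ± 1.60 and 20.8 ± 11.5 (SD, n = 4), a ratio of 2.61. The log2 difference was 1.13 (SE 0.38, adjusted p = 0.119 in limma, and 0.0571 in the exact permutation test). Between 34.4 and 737 implied fragments stood behind each Krt19 value.

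Krt7, the duct type II keratin, was 0.887, 1.90, 1.65 and 1.03 rescaled FPKM in controls 1 to 4 and 12.9, 2.68, 7.22 and 0.842 in labelled libraries 1 to 4. It had the widest relative range of the tested keratins, with library 1 at 9.47 times and library 3 at 5.29 times the control mean. Library 4 was below all 4 controls. The labelled mean of 5.92 ± 5.39 (SD, n = 4) was 4.34 times the control mean, with a log2 difference of 1.18 (SE 0.56, adjusted p = 0.191 in limma, and 0.171 in the exact permutation test). Only 4.53 to 15.7 implied fragments stood behind Krt7 outside libraries 1 and 3, where there were 239 and 123. In library 4 the deposited interval ran from 0.0508 to 1.63 rescaled FPKM, which covers 2 of the controls, so its place below them is within the counting error.

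Krt20 was 0.367, 0.0916, 0.384 and 0.406 rescaled FPKM in controls 1 to 4 and 0.147, 0.486, 0.345 and 1.10 in labelled libraries 1 to 4. It was highest in library 4, where Krt7 was lowest, and low in library 1, where Krt7 was highest. Each value rested on 2.0 to 28.0 implied fragments, and the gene was below the minimum mean of 1 for testing. The exact permutation test gave p = 0.4 for a log2 difference of 0.18, so no difference between genotypes was found at the reported scaling. Under equal-sum and implied-total scaling (below) the log2 differences of Krt20 were 0.38 and 0.49, each with an exact permutation p of 0.0286. That is the smallest p that 4 against 4 libraries allow. The medians of all genes tested were larger under these scalings, at 0.80 and 1.15, though differences of so low a gene are understated on this scale.

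**Figure D1:**
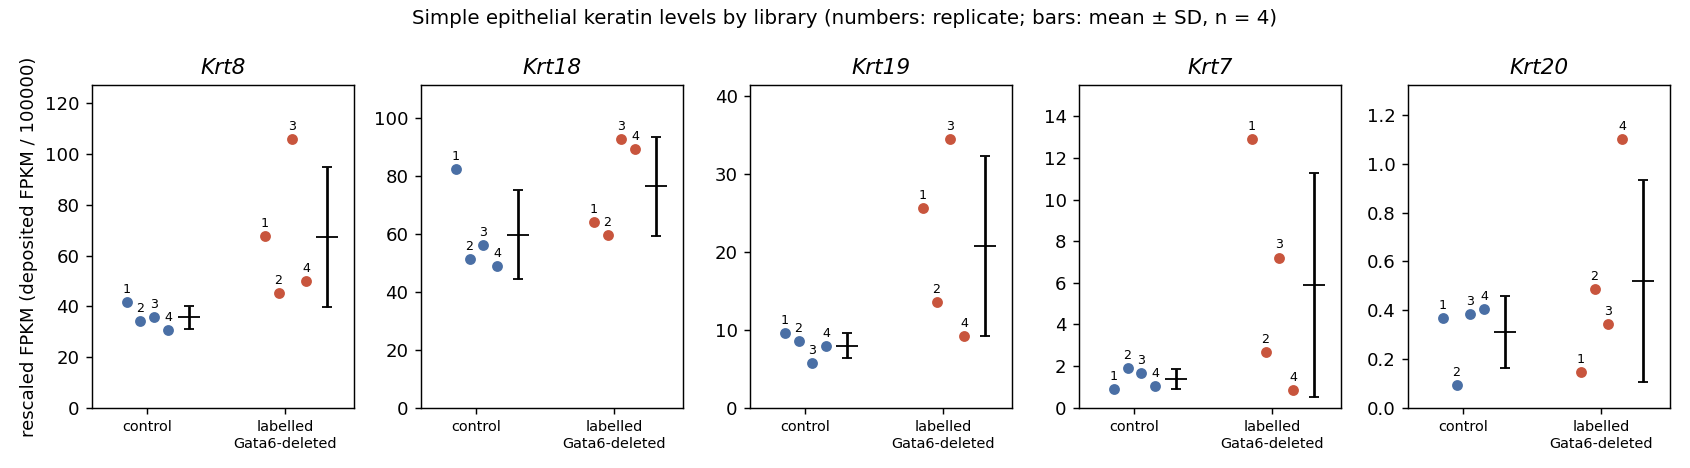
Rescaled FPKM (linear axis from 0) of each keratin in the 4 controls and 4 labelled libraries, with replicate numbers at the points and mean ± SD (n = 4) beside them. Krt8 is higher in every labelled library than in every control, Krt19 and Krt7 are highest in libraries 1 and 3 and reach the controls in library 4, and Krt18 overlaps between the groups.

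Of the 5 keratins 4 could be tested, and 0 of the 4 passed at an adjusted p under 0.05 in limma, where 49 of 11832 genes (0.414%) did. At an unadjusted p under 0.05 there were 2 of 4, Krt8 and Krt19, against 30.1% of all genes (17.8% higher). All 4 differences were positive, while the median over all genes tested was 0.10. Krt7 and Krt19 lay at the 94.7th and 94.1st percentile of all log2 differences, Krt8 at the 89.0th and Krt18 at the 69.5th. Without labelled library 4 Krt7 and Krt19 passed (log2 1.69 and 1.44, adjusted p = 0.0413 and 0.0376 in limma), in a fit where 2556 of all genes passed. Labelled libraries 1 and 3 held the highest labelled values of Krt7, Krt8 and Krt19, so leaving both out had to lower these differences. They shrank to 0.16, 0.42 and 0.47, at the 68.8th, 87.0th and 88.9th percentile of all genes in that fit. The difference of Krt18 was 0.32 there. In whole tissue a change in the number of cells of a type and a change in RNA per cell cannot be told apart.

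Within a library, the ratio of 2 keratins does not depend on how libraries were scaled, and 4 such ratios were compared. Krt18 stood at 1.97, 1.50, 1.57 and 1.59 times Krt8 in controls 1 to 4. In labelled libraries 1 to 4 it stood at 0.946, 1.31, 0.874 and 1.79 times Krt8. The partner that was lower in every control was thus the higher one in libraries 1 and 3, while library 4 kept the control order. The log2 ratio averaged 0.72 ± 0.18 among controls and 0.24 ± 0.47 across labelled libraries (SD, n = 4), and the difference did not hold up against that spread (exact permutation p = 0.114, 0.286 adjusted over the 4 ratios).

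Krt19 was 11.6%, 16.7%, 10.3% and 16.2% of Krt18 in controls 1 to 4 and 40.0%, 22.8%, 37.2% and 10.4% in labelled libraries 1 to 4. Duct type I keratin was therefore a larger part of the type I pool in 3 of 4 labelled libraries than in any control (difference of log2 ratios 0.86, exact permutation p = 0.143, adjusted 0.286). Krt7 was 2.12%, 5.55%, 4.61% and 3.34% of Krt8 among controls and 19.1%, 5.90%, 6.80% and 1.69% across labelled libraries. Here too libraries 1, 2 and 3 were above every control, but only library 1 by far. Library 4 was below the controls, on 4.53 implied Krt7 fragments (difference 0.71, exact permutation p = 0.4, adjusted 0.533). Krt20 stayed between 0.179% and 0.831% of Krt18 among controls and between 0.230% and 1.24% across labelled libraries (difference 0.23, exact permutation p = 0.771, adjusted 0.771).

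**Figure D2:**
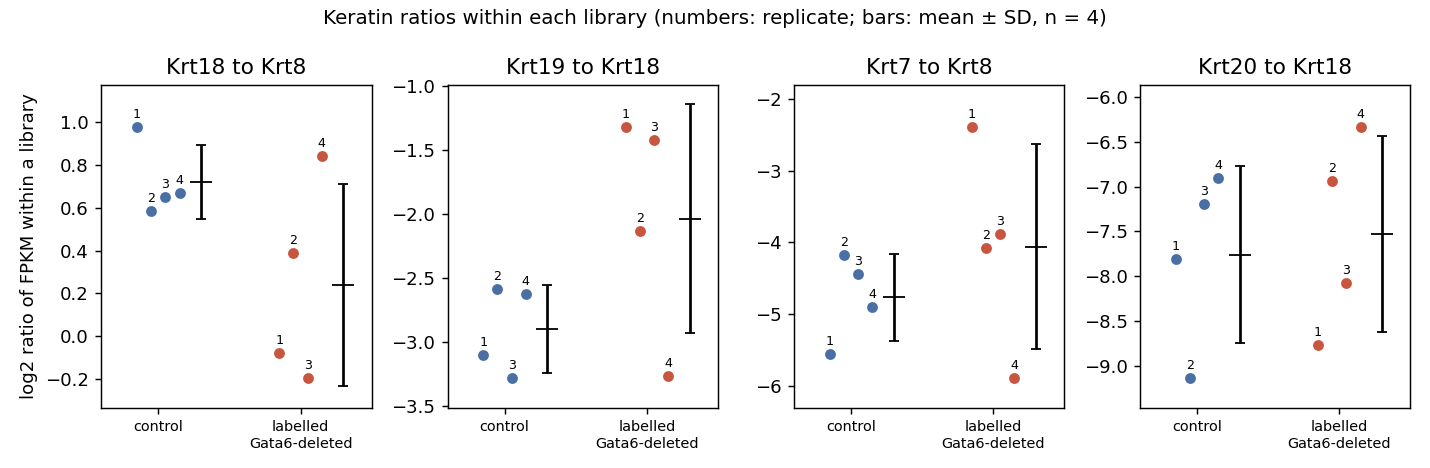
The log2 ratio of FPKM of 2 keratins within each library, with replicate numbers at the points and mean ± SD (n = 4) beside them. Krt18 falls below Krt8 (log2 ratio under 0) in labelled libraries 1 and 3 alone, and the same 2 libraries have the highest Krt19 to Krt18 ratio.

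Krt7 and Krt19 together made up 7.75%, 10.9%, 7.45% and 10.1% of the 5 keratins' summed level in controls 1 to 4. They made up 22.6%, 13.4%, 17.3% and 6.72% in labelled libraries 1 to 4. Labelled library 4 was thus the lowest of the 8 and the other 3 labelled libraries were the highest. The type I genes together stood at 2.16, 1.66, 1.67 and 1.80 times the type II genes among controls and at 1.11, 1.53, 1.13 and 1.97 times across labelled libraries. Libraries 1 and 3 came nearest to equal amounts of both types. The summed level of all 5 was 89.0 to 135 rescaled FPKM among controls and 171, 122, 241 and 150 across labelled libraries.

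**Figure D3:**
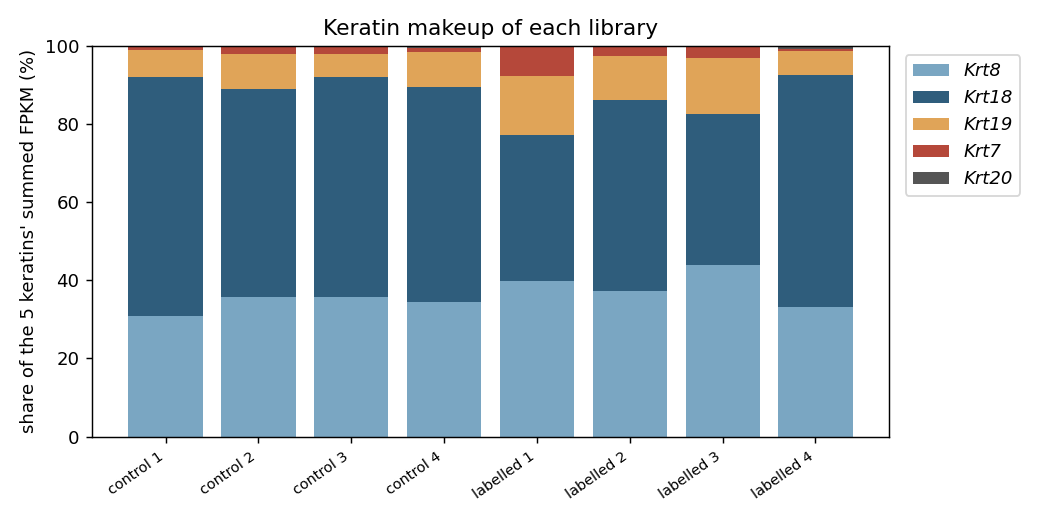
Stacked bars give each keratin's share (%) of the summed FPKM of the 5 keratins in each library. Krt18 is the largest share in all 4 controls (53.4% to 61.0%), and the Krt19 and Krt7 shares are widest in labelled libraries 1 and 3.

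Keratins outside the simple epithelial set were scarce. Of the 41 others in the files, 13 were at 0 in all 8 libraries and 39 had a mean below 1 rescaled FPKM. The 2 above it were Krt23, a type I keratin, and Krt80, a type II keratin. Krt23 was 3.61, 3.37, 3.15 and 2.67 in controls 1 to 4 and 3.78, 4.03, 9.53 and 4.03 in labelled libraries 1 to 4, higher without overlap but mainly by library 3 (log2 0.51, adjusted p = 0.203 in limma). Krt80 was 0.569 to 1.69 among controls and 3.01, 2.14, 2.96 and 0.972 across labelled libraries (log2 0.60, adjusted p = 0.170 in limma). Krt17, a keratin of basal and injured epithelium chosen here after its values were seen, was 0.0770 to 0.267 among controls and 3.33, 0.472, 1.63 and 0.127 across labelled libraries. The labelled libraries stood in the same order as for Krt7, while the controls did not.

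Genes that bind or anchor keratin filaments differed in both directions. Of 20 listed partners 19 were in the files and 16 were tested: 12 were positive and 4 negative, with a median of 0.14 against 0.10 for all genes. In limma 0 of the 16 passed, and 3 had an unadjusted p under 0.05, against 30.1% of all genes tested. Ywhae and Ywhaz, 14-3-3 proteins of the family that binds phosphorylated Krt18, had log2 differences of 0.02 and 0.81 (adjusted p = 0.942 and 0.110 in limma). Pof1b, the third of the most abundant partners, had -1.63 (adjusted p = 0.448 in limma), with 136 in control 1 and at most 0.616 in each other library. The desmosome gene Dsp, which ties filaments to the cell border, was 2.50 to 3.23 among controls and 2.78 to 3.89 across labelled libraries (chosen after its values were seen). Vimentin, the filament of mesenchymal cells, was 51.3, 39.0, 27.4 and 47.5 in controls 1 to 4 and 111, 60.5, 114 and 53.0 in labelled libraries 1 to 4 (Vim, log2 0.97, adjusted p = 0.122 in limma). The 3 tested cytoplasmic filament genes outside the keratins (Vim, Des and Nes) were positive and the 2 tested lamins too, and 0 of these 5 passed.

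Among 12 general epithelial genes, all tested, 9 were positive, and the median was 0.46. In limma 0 of the 12 passed, and 5 had an unadjusted p under 0.05, against 30.1% of all genes tested. Their summed level was 78.8 to 96.1 rescaled FPKM among controls and 177, 109, 251 and 128 in labelled libraries 1 to 4, the same order of labelled libraries as for the summed keratins. The claudins Cldn3 and Cldn7 and the junction protein F11r had log2 differences of 0.49, 0.97 and 0.79 (adjusted p = 0.232, 0.109 and 0.114 in limma). Epcam and Cldn4, chosen after their values were seen, were higher in every labelled library than in every control. Of the 12 genes 3 were higher without overlap and 1 lower, against 10.9% and 7.61% of all genes tested. Epcam was 6.45 to 7.15 among controls and 30.2, 9.23, 20.1 and 10.6 across labelled libraries, and Cldn4 was 0.581 to 1.34 and 28.5, 7.79, 59.1 and 1.93. Ovol2, an epithelial transcription factor of the same list chosen in the same way, was lower in every labelled library than in every control, at 1.28 to 2.52 and 0.433, 0.858, 0.522 and 1.14 (log2 -0.64, adjusted p = 0.117 in limma).

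Other duct genes went in both directions. Of 20 on the duct list 15 were tested, 9 positive and 6 negative, with a median of 0.13. In limma 0 of the 15 passed, and 5 had an unadjusted p under 0.05, against 30.1% of all genes tested. Sox9, a duct transcription factor chosen after its values were seen, was 1.44 to 2.52 among controls and 1.41 to 2.64 across labelled libraries, so the groups overlapped. Of the 3 most abundant, Clu, a secreted chaperone also induced in injured acinar cells, had a log2 difference of 1.42, while Muc1 and Tff2 had -1.75 and -3.11 (adjusted p = 0.101, 0.118 and 0.136 in limma). Muc1 and Tff2 were lowest in labelled libraries 1 and 3 (11.9 and 31.3, and 38.1 and 272), as the acinar genes were.

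Genes of other cell types also differed between the libraries, not all in the keratins' order, and their part in the keratin levels was not tested. The acinar list was negative in 17 of 17 tested genes with a median of -2.94, 12 of them lower without overlap (7.61% of all genes). In limma 0 of the 17 passed (0.194% of all genes fell), and 9 had an unadjusted p under 0.05, against 30.1% of all genes. The elastase Cela1 was 68300 to 93114 among controls and 131, 29364, 2977 and 37260 across labelled libraries. Mesothelial cells, which cover the organ and make the same 4 keratins Krt7, Krt8, Krt18 and Krt19, had a summed marker level of 16.3 to 28.7 among controls and 26.7, 32.0, 45.4 and 31.9 across labelled libraries, with 8 of 8 tested of 10 listed positive. In labelled library 1 the mesothelial sum was inside the control range, and single members, chosen after their values were seen, went both ways. Wt1, Gpm6a and Rspo1 were 2.54, 3.70 and 3.39 there, each above every control (at most 1.54, 2.58 and 2.31). Nkain4 was 2.80 there, below every control (5.18 to 7.31), and the rest of that list lay inside the control range. Myeloid markers summed to 98.6 to 156 among controls and 789, 248, 680 and 204 across labelled libraries, and fibroblast markers to 223 to 309 and 923, 362, 1358 and 424. Stomach and intestine markers summed to 1.77 to 2.04 and 9.66, 66.9, 5.64 and 5.62, with Gkn1, Gkn2, Atp4b, Fabp2 and Alpi at 0 in all 8 libraries. Islet markers summed to 562 to 1486 and 6013, 1499, 949 and 767, and adipocyte markers to 82.2 to 236 and 541, 471, 409 and 481. No tested member of the acinar, mesothelial, myeloid, fibroblast, stomach and islet lists passed in limma. Only 1 of 16 stomach and intestine genes (Gkn3) and 11 of 14 islet genes were tested. Of the adipocyte genes 4 of 10 rose, against 0.22% of all genes (Pck1, Cidec, Plin4 and Cd36, log2 1.97, 1.95, 1.84 and 1.55).

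**Figure D4:**
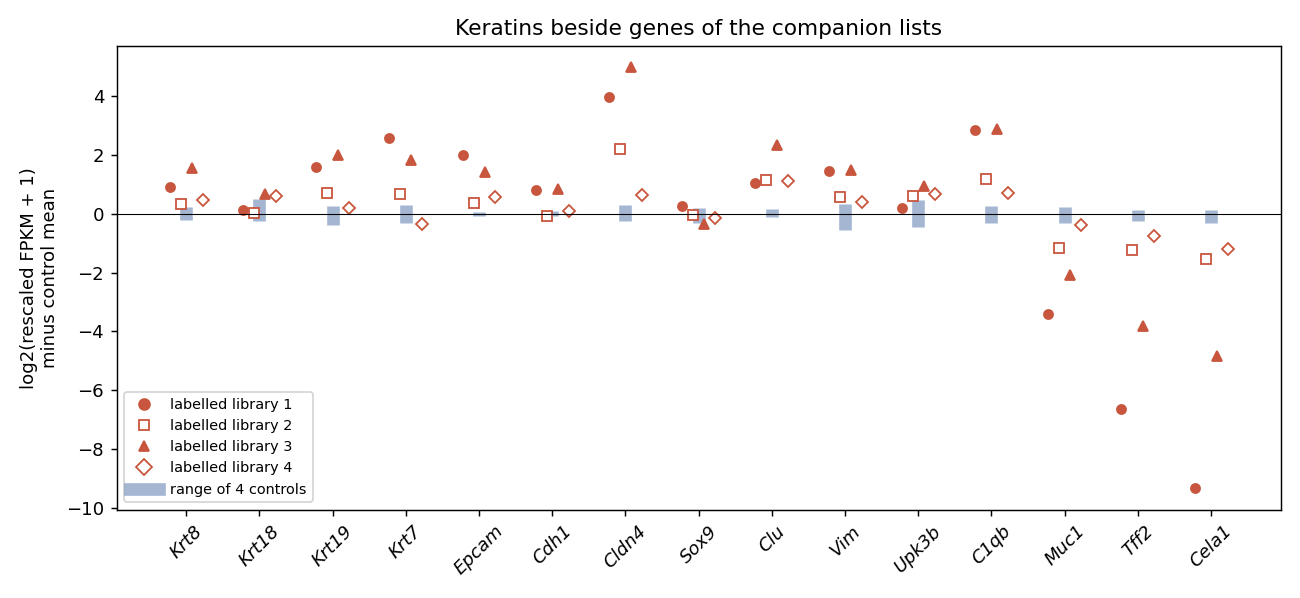
Each symbol is a labelled library's log2(rescaled FPKM + 1) minus the control mean, and bars give the range of the 4 controls. Filled symbols, labelled libraries 1 and 3, sit highest for Krt8, Krt19 and Krt7 and for Epcam, Cldn4, Vim and C1qb, near 0 for Sox9, and lowest for Muc1, Tff2 and Cela1.

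The genes most like each tested keratin were found by Pearson's r of log2(rescaled FPKM + 1) over the 8 libraries, as a description among 9813 named genes. For Krt8 these were Rfc2, Trem2 and Sema4b (r = 0.993, 0.993 and 0.988). For Krt18 they were the protein disulfide isomerase gene Pdia4, Bcl7c and Sdc4 (0.981, 0.968 and 0.964). For Krt19 they were Plek, Irf7 and Aebp1 (0.993, 0.992 and 0.992), and for Krt7 Usp8, Nup153 and Nup93 (0.993, 0.991 and 0.990). Between the keratins r was 0.93 for Krt8 and Krt19, 0.87 for Krt7 and Krt19, 0.76 for Krt7 and Krt8, 0.71 for the pair Krt8 and Krt18, and 0.13 for Krt7 and Krt18. The filament partners Krt8 and Krt18 were thus less alike across libraries than Krt8 and Krt19. All these values share the same 8 libraries, and libraries 1 and 3 weigh on most of them.

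Scaling changed the size of the keratin differences and the sign of none of the 4 tested. Under an equal sum outside the digestive enzymes the log2 differences of Krt7, Krt8, Krt18 and Krt19 were 1.91, 1.73, 1.26 and 1.99, and under the implied fragment totals 2.21, 2.20, 1.74 and 2.42. The median of all genes was 0.80 and 1.15 under these scalings, against 0.10 as reported. Relative to that median the differences were 1.11, 0.92, 0.46 and 1.19, and 1.06, 1.05, 0.59 and 1.28. Under both, all 4 labelled libraries lay above every control for Krt8, Krt18 and Krt20, and Krt7 still overlapped. Krt19 overlapped under the equal sum but not under the implied totals. The share of all genes without overlap was not computed under these scalings.

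**Figure D5:**
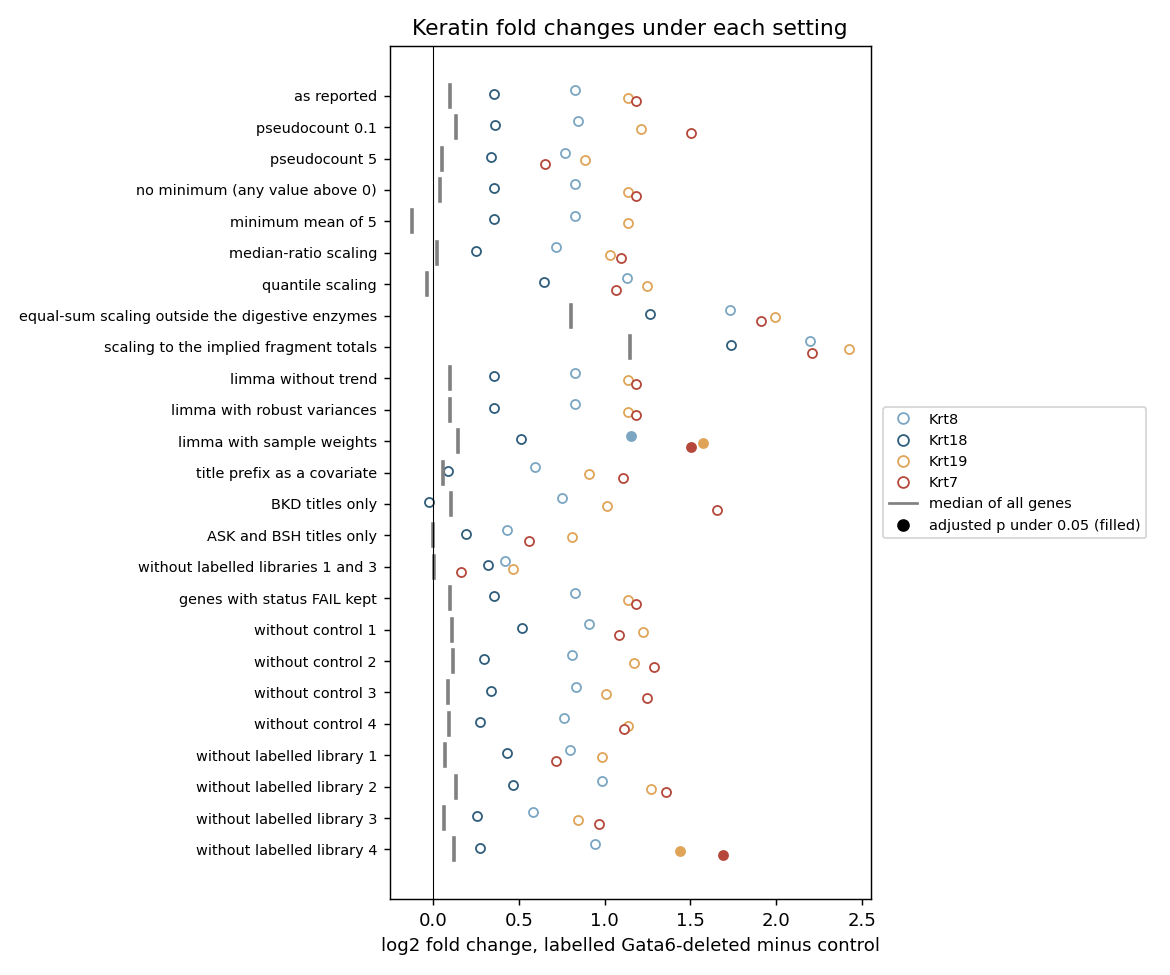
The log2 fold change of the 4 tested keratins (circles) under each setting, with the median of all genes as a grey bar and filled circles where the adjusted p was under 0.05. Krt18 is the nearest to the median of all genes in all but 1 setting, and filled circles appear only with sample weights and without labelled library 4.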

How the data were processed

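Poly(A) RNA libraries of 8 pancreases (8 PCR cycles, RNA integrity numbers 7.1 to 8.8, per the labels' protocols) were each deposited by the authors as a table holding, for every gene, FPKM, its interval and a status, per the file headers. Cufflinks 2.0.1, TopHat2 2.0.4, Bowtie and CASAVA 1.8 appear in the submitters' processing notes, with mm9 and NCBIM37. Gene models and Cufflinks options: not given in the sources used here. The sums of 2.34e+10 to 1.86e+11 per library are not those of FPKM per mapped fragments, and all were divided by 100000. The 14 IDs on more than 1 entry were summed, and 39 IDs with status HIDATA or FAIL in any library were left out. Fragments were implied from interval widths; they cover counting error only.

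The 11832 genes with a mean of at least 1 were tested with limma 3.58.1 (R 4.3.3, intensity trend, two-sided, Benjamini-Hochberg over all genes, threshold 0.05) on log2(rescaled FPKM + 1), which understates changes of low genes. The test was checked on simulated data drawn with the spread of the controls in both groups. The labelled libraries spread more than the controls for Krt7, Krt8 and Krt19, and the check does not cover that. Krt20 was below the minimum and has an exact permutation test in its place. Ratios used exact permutation tests. Each sample is taken as 1 mouse, and p-values measure the spread between these samples. Genes named were drawn from the keratins, other keratins above the minimum, the 3 most abundant and all passing members of each list, and the 3 genes most like each keratin; others are said to be chosen later. The members and lists were chosen with earlier results of these data known. Alternatives covered pseudocounts, minimum, scaling, limma options, title prefix and left-out libraries. Cufflinks shares ambiguous fragments by likelihood, so keratins with pseudogene copies, such as Krt8, are uncertain to that extent.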

Additional observations from a re-analysis of the deposited data

Results flagged for a closer look

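In 104 groups of 4 libraries checked for 1 library far from the other 3, 11 stood out. The cut-off flags about 1 in 20 groups of independent, normally distributed values. These groups share the same libraries and were checked on untransformed levels, so 11 does not measure an excess over chance. Among keratins these were Krt20 in control 2 (0.0916 rescaled FPKM, the other controls 0.367 to 0.406) and Krt23 in labelled library 3 (9.53, the others 3.78 to 4.03). Pof1b, an actin-binding gene listed as a filament partner, was 135.9 in control 1 against 0.0354 to 0.140 in the other controls, and 0.616 in labelled library 1 against 0 to 0.0860. Clu was 1985 in labelled library 3 against 807 to 871. Cela1 was 68300 in control 4 against 91578 to 93114. Ins1, Ins2 and Gcg were 689, 4367 and 405 in labelled library 1, against 69.1 to 127, 595 to 1180 and 30.0 to 62.4. The stomach genes Gkn3 and Muc6 were 56.3 and 6.40 in labelled library 2, against 2.63 to 5.01 and 0.0214 to 0.832.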

How the results depend on the processing

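Of 24 other settings, all kept the sign of Krt7, Krt8 and Krt19 where they were tested. Krt18 turned to -0.023 among the BKD titles, where control 1 was the only control. With sample weights Krt7, Krt8 and Krt19 passed (log2 1.50, 1.15 and 1.57, adjusted p = 0.0273, 0.0184 and 0.0163 in limma), as did 3780 genes. Krt20 reached an exact permutation p of 0.0286 under equal-sum and implied-total scaling (0.38 and 0.49), where the medians of all genes tested were 0.80 and 1.15. Quantile scaling was not run for Krt20. The count of 49 genes (26 higher) became 30 under quantile (12 higher), 22 under equal-sum (22 higher) and 6 (6 higher) under implied-total scaling, 5 with the prefix as a covariate, 16 (0 higher) within BKD and 89 (87 higher) within ASK and BSH titles, and 13 (11 higher) once labelled libraries 1 and 3 were left out; leaving out 1 library gave 10 to 2556. The cause of these changes was not tested. Gata6 (0.72) no longer passed at 0.90 and 0.38 (pseudocounts 0.1 and 5), 0.72 (no minimum, no trend, robust variances), 0.63, 0.57, 1.45 and 1.80 (median-ratio, quantile, equal-sum and implied-total scaling), 0.71, 0.57 and 0.85 (prefix as covariate, BKD, ASK and BSH) and 0.69 (without labelled libraries 1 and 3). Gata6 passed without labelled library 4 (adjusted p = 0.0324 in limma) and in none of the other 7 fits that leave out 1 library (adjusted p = 0.0608 to 0.183). Leaving out 1 library gave 0.67 to 0.77 for Gata6, 0.71 to 1.69 for Krt7, 0.58 to 0.99 for Krt8, 0.26 to 0.52 for Krt18, 0.84 to 1.44 for Krt19 and 0.01 to 0.31 for Krt20. The difference in log2 ratio of Krt20 to Krt18 turned to -0.17 with a pseudocount of 1, to -0.22 without control 2 and to -0.16 without labelled library 4, and that of Krt7 to Krt8 to -0.22 without labelled libraries 1 and 3. Over leaving out 1 library the ratios ranged from -0.68 to -0.34 (Krt18 to Krt8), 0.62 to 1.27 (Krt19 to Krt18), 0.15 to 1.32 (Krt7 to Krt8) and -0.22 to 0.65 (Krt20 to Krt18). No paired analysis was possible because the titles carry no replicate numbers. Depth limits Krt20 and, outside labelled libraries 1 and 3, Krt7.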

Other observations

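The low duct secretion genes Cftr and Slc4a4, which were below the testing minimum, were highest in labelled libraries 1 and 3, as Krt7 was, and were chosen after their values were seen. Cftr, the chloride channel of duct cells, was 0.116 to 0.236 rescaled FPKM among controls and 1.74, 0.172, 0.736 and 0.109 across labelled libraries 1 to 4. Slc4a4, a bicarbonate transporter, was 0.208 to 0.343 among controls and 2.21, 0.608, 1.58 and 0.467 across labelled libraries, all above the controls. Anxa3, which was tested, was 2.26 to 3.36 and 15.6, 4.73, 12.4 and 3.29 (log2 1.16, adjusted p = 0.128 in limma), so labelled library 4 again lay with the controls. Some other members of the duct list, among them Spp1, Bicc1, Dcdc2a and Ehf, had the same order of labelled libraries as Krt7. Others did not. Cldn10, a claudin, was 27.4 to 42.4 among controls and 1.58, 15.8, 5.07 and 29.6 across labelled libraries (log2 -1.90, adjusted p = 0.129 in limma). For Cldn10 the labelled libraries stood in the same order as for the summed acinar list. Pkhd1 and Onecut1, both below the testing minimum, were 0.738 to 0.998 and 0.301 to 0.775 among controls. In labelled library 1 they were 1.65 and 0.779, above every control, though Onecut1 only just. In labelled libraries 2 to 4 both were below every control, with 0.570 and 0.221 in library 3.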
